A study of Mus musculus with 3 samples.

Results

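The subject is the comparison of GIP cells with reporter-negative epithelium of the mouse upper small intestine, read as messenger RNA in 2 of the 3 libraries of the series. It was chosen by sample: the library of cells sorted for GIP-GFP fluorescence against the library of cells without tomato fluorescence, called Ngn3-negative. After the transcript filters given under the processing of the data, 24265 genes had an assigned transcript of the series. Of these, 13471 were measured, meaning that they reached 1 scaled FPKM in at least 1 of the 2 libraries. Every measured gene belongs to the comparison. The genes named were picked from lists and by the size of their level or ratio, so their values are a description.

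GIP, glucose-dependent insulinotropic polypeptide, is an incretin: it leaves endocrine cells of the upper intestine after a meal and raises insulin release from pancreatic beta cells. The cells that make it, long called K cells, are scattered among absorptive enterocytes, mucus-secreting goblet cells and other epithelial cells. They descend from crypt progenitors that briefly express Neurogenin 3, store peptide in dense-core granules, and release it when nutrients raise intracellular calcium or cyclic AMP. Most of the epithelium around them is built for digestion and uptake, with a brush border of hydrolases, transporters and enzymes that export lipid.

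The GIP-GFP cells came from a reporter mouse line in which GIP cells fluoresce green. The Ngn3-negative cells came from male mice that carried Ngn3-Cre together with the ROSA26-LoxP-STOP-LoxP-tomato allele, and were the cells that stayed dark for tomato and unstained for the blood cell marker CD45. All mice are labelled C57BL/6, no treatment is described, and the age of the animals and the number of mice per pool are not given in the sources used here. Cre marks the descendants of any cell that expressed Neurogenin 3, so the dark cells are those outside the recombined lineage. The sex of the GIP-GFP mice is not stated. A CD45 gate is stated for the tomato sorts and not for the GIP-GFP sort. The line, the gate and the sort differ together between the libraries and cannot be told apart.

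Each library was made from a pool of RNA in equal amounts from individual samples, so each group has 1 library, and no difference below has a replicate check or a p-value. The values are FPKM, which count fragments relative to transcript length and library size, summed per gene and divided by 1 common number, which is called scaled FPKM. Every value pair gives GIP-GFP first and Ngn3-negative second. The log2 ratio is taken after 1 is added to each level. The range in parentheses after it is a 95% counting interval from the deposited limits, which covers counting noise and how reads were assigned to transcripts. It says nothing of how mice or sorts vary. "Higher" and "lower" in a count of genes mean at least 2-fold on that scale. The depth was 592 Mb of read bases in GIP-GFP and 1029.7 Mb in Ngn3-negative. In sums over many cells, fewer cells of a type and less RNA per cell cannot be told apart.

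Over the 13471 genes, 2843 (21.1%) were at least 2-fold higher in GIP-GFP and 1852 (13.7%) at least 2-fold lower. Past 4-fold were 1368 (10.2%) and 373 (2.77%). The median log2 ratio was 0.07, with quartiles of -0.54 and 0.80. These shares are the background for each group of genes below. They depend on scale: the median of all genes moved to -0.13 when the gene totals of the libraries were set equal and to 0.24 when they were set equal without the most abundant genes. In the plot of levels, many hormone, granin and endocrine factor genes lie above the upper 4-fold line, and many brush border genes lie along or below the lower one.

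**Figure D1:**
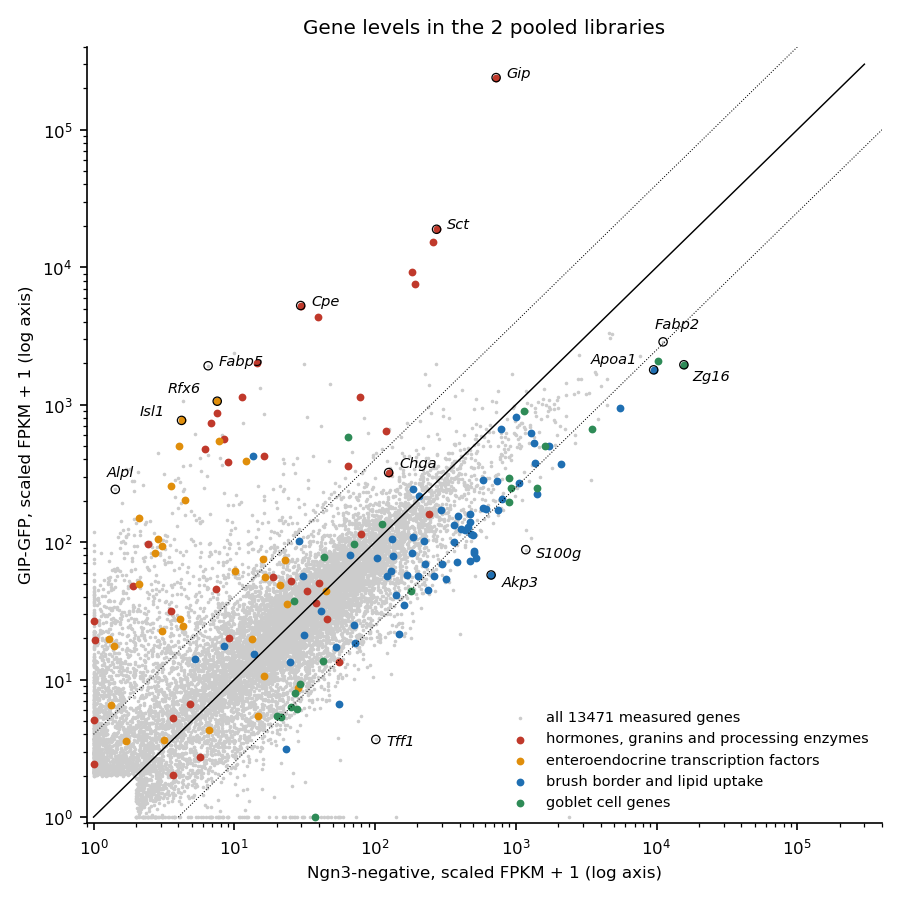
Level of each of the 13471 measured genes in Ngn3-negative (x axis) and GIP-GFP (y axis), both as scaled FPKM plus 1 on log axes, 1 pooled library each; the solid line marks equal levels and the dotted lines 4-fold, colors mark the gene lists in the key, and rings mark labelled genes. Gip, at 239590 against 724 scaled FPKM, stands above all other genes, and Zg16 is the most abundant gene of Ngn3-negative at 15647.

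The GIP-GFP library was dominated by its own hormone. Gip took 23% of the summed gene values, and the 10 most abundant genes together took 29.8%, against 8.70% for the 10 most abundant of Ngn3-negative. With Gip set aside, the 10 most abundant genes took 9.14% of the rest of GIP-GFP and 8.71% of the rest of Ngn3-negative. The most abundant after Gip were Sct, the secretin precursor, at 18887 scaled FPKM, Sst, the somatostatin precursor, at 15309, Cck, the cholecystokinin precursor, at 9209, and Chgb, a granin that condenses in secretory granules, at 7609.7. In Ngn3-negative the leading genes were the goblet cell lectin Zg16 at 15647, the enterocyte fatty acid binding protein Fabp2 at 11133, the trefoil peptide Tff3 at 10258 and the apolipoprotein Apoa1 at 9542. Genes that were abundant in both included Rbp2, the enterocyte retinol binding protein, at 3029.8 against 4697, the lectin Lgals2 at 3242 against 4827 and Plac8 at 3325 against 4603.

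The 5 markers of the GIP cells were chosen with earlier results of these data known. Their values are a description and no check of the labels. Gip (uc007lba.1, chromosome 11, 96024545 to 96030828) stood at 239590 against 724 scaled FPKM, a log2 ratio of 8.37 (8.33 to 8.41). Fabp5, a fatty acid binding protein (uc008opg.1, chromosome 3, 10012606 to 10016610), stood at 1919 against 5.52 scaled FPKM, a log2 ratio of 8.20 (7.86 to 8.54). Rfx6, a factor that specifies islet and gut endocrine cells, stood at 1059 against 6.57 scaled FPKM, a log2 ratio of 7.13 (6.92 to 7.34), Isl1, a homeodomain factor of endocrine cells, at 768 against 3.22 scaled FPKM, a log2 ratio of 7.51 (7.28 to 7.74), and Abcc8, the sulfonylurea receptor, at 443 against 1.89 scaled FPKM, a log2 ratio of 7.26 (7.03 to 7.49). In Ngn3-negative these genes held 0.302%, 0.287%, 0.620%, 0.419% and 0.426% of their GIP-GFP level, in that order. Markers of other epithelial cells were above 0 in GIP-GFP. The 5 enterocyte markers stood at 15.6% to 64.5% of their Ngn3-negative level, the 4 goblet cell markers at 12.5% to 26.9%, the 4 Paneth cell markers at 31.8% to 58.2%, the 4 tuft cell markers at 23% to 39.4% and the 3 stem cell markers at 18.6% to 22.9%. The part of such RNA in each result below was not tested.

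**Figure D2:**
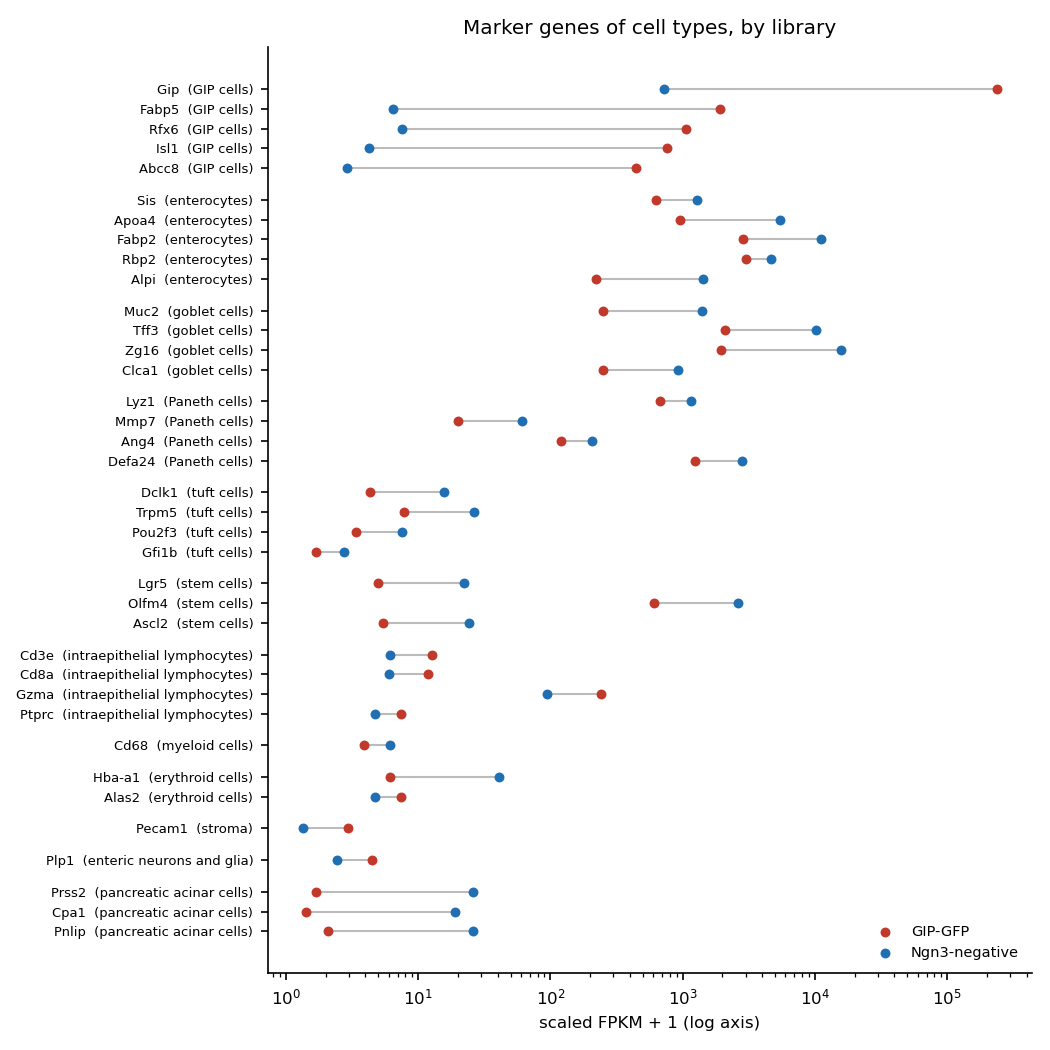
Levels of marker genes (rows, with their cell type) in GIP-GFP (red) and Ngn3-negative (blue), as scaled FPKM plus 1 on a log axis, 1 pooled library each; markers under 1 scaled FPKM in both libraries are left out. The 5 GIP cell markers lie more than 100-fold apart, and the enterocyte, goblet, Paneth, tuft and stem cell markers lie closer together in the opposite order.

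Sequence upstream of Gip is shown because GATA and HNF1 factors, whose genes are described below, are known regulators of intestinal genes. The 250 bases before the RefSeq start of Gip (chr11:96024295-96024544, plus strand, build GRCm38.p6), with matches to AGATAA, a word of GATA factors, and to GTTAAT, a word of HNF1 factors, in capitals, read 5′ to 3′:
Gip: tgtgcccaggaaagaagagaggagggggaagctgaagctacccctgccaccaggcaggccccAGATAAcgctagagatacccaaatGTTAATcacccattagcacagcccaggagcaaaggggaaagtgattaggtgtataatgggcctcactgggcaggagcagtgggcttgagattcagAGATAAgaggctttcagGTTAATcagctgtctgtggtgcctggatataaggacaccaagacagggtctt
The matches start at -188 and -69 for AGATAA and at -164 and -52 for GTTAAT, counted from the start site. Among 9451 measured genes whose RefSeq start lay within 500 bases of the start of their most abundant transcript, 6.51% held AGATAA and 4.53% GTTAAT on either strand of a window of 300 bases (250 before the start and 50 after). A match is a run of letters and not a site of binding.

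Hormone precursors other than Gip were mostly far above the epithelium too. Of the hormone list, 13 of 16 measured members were higher and 0 lower, and the median log2 ratio was 3.17 (range 2.43 to 5.20). Such a range covers the alternatives tried for the pseudocount, the filter on low genes, the scaling and the choice of transcripts, and is given where it reaches more than 1.5-fold from the median. A gene can pass the filter through 1 library alone. The residual levels of hormone genes in Ngn3-negative covered a wide range. Pyy, the peptide YY precursor, held 0.883% of its GIP-GFP level there (4345 against 38.4), Sct 1.44%, Sst 1.68% and Cck 1.98%. Ghrl, the ghrelin precursor, held 6.82%, Gcg, the proglucagon gene, 17.7% (354 against 62.8), Nts, the neurotensin precursor, 18.4% (641 against 118), and Tac1, the substance P precursor of enterochromaffin cells, 47.1% (51.3 against 24.1). Gast, Ppy and Insl5, the gastrin, pancreatic polypeptide and insulin-like 5 genes, were listed at 0 in Ngn3-negative. The neuropeptide gene Cartpt was at 1.04 against 2.66. Together the measured hormone genes other than Gip summed to 50535.5 scaled FPKM in GIP-GFP, which is 21.1% of the level of Gip, and to 1049 in Ngn3-negative. A pool cannot show whether they came from the cells that held Gip.

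Granule cargo was high in GIP-GFP, and Chga stood apart from its list. All 10 measured granins and granule lumen proteins were higher, and their median log2 ratio was 5.78. Scg2 stood at 2025 against 13.5 scaled FPKM, a log2 ratio of 7.12 (6.97 to 7.27), Scgn, the calcium binding protein secretagogin, at 866 against 6.51, Scg5, the chaperone of the convertase PCSK2, at 736 against 5.87, and Resp18 at 1139.8 against 10.3. Chga, the granin most used as a pan-endocrine marker, was at 320 against 124 scaled FPKM, a log2 ratio of 1.36 (1.29 to 1.43), the smallest ratio of the list, while its relative Chgb was at 7609.7 against 191. Ngn3-negative thus held 38.7% of the GIP-GFP level of Chga and 2.51% of that of Chgb.

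Enzymes that cut and trim prohormones lay on both sides, also within the convertase family. Cpe, the carboxypeptidase that removes basic residues, stood at 5262 against 28.6 scaled FPKM, a log2 ratio of 7.47 (7.37 to 7.58), and Pam, which amidates peptide ends, at 379 against 8.07. Of the convertases, Pcsk1 was at 424 against 15.3 and Pcsk2 at 18.5 against 0.0172. Pcsk1 processes GIP to its active form. Pcsk1n, an inhibitor of that enzyme, was at 96.3 against 1.46. Convertases of the general secretory route were at like or lower levels: Furin was at 49.8 against 39.2, Pcsk7 at 26.4 against 44.4, Pcsk6 at 1.74 against 4.74 and Pcsk5 at 12.3 against 54.9 scaled FPKM, a log2 ratio of -2.07 (-2.18 to -1.95). Over the list, 7 of 15 measured members were higher and 2 lower, and the median log2 ratio was 0.53.

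Membrane proteins of the granule and the fusion machinery were higher as groups. For granule membrane and biogenesis, 14 of 19 measured members were higher and 1 lower, and the median log2 ratio was 2.02. Ptprn2, a phosphatase-like granule protein, stood at 735 against 10.5, Syp, synaptophysin, at 163 against 2.63, Baiap3, which acts in dense-core vesicle traffic, at 177 against 2.96, and Cadps, a priming factor, at 75.8 against 1.26. For SNARE proteins, priming factors and calcium sensors, 19 of 26 measured members were higher and 0 lower, and the median log2 ratio was 2.65 (range 1.46 to 3.59). The complexins Cplx2 and Cplx1, clamps of the fusion complex, stood at 363 against 3.81 and 110.2 against 0.707. The neuronal SNAREs Stx1a and Snap25 stood at 77.4 against 2.41 and 84.0 against 3.14, whereas the general forms Stx3, Stx4a, Snap23 and Vamp8 stood at 55.3 against 65.0, 51.3 against 78.9, 23.1 against 39.4 and 235 against 301. Among synaptotagmins, Syt13 was at 109 against 2.35, Syt7, a high-affinity calcium sensor, at 95.2 against 5.60, and Syt5 at 81.9 against 6.83. Rab3 and Rab27 with their effectors went both ways: 8 of 18 measured members were higher and 3 lower, and the median log2 ratio was 0.62. Rab3b stood at 30.9 against 0.321 and Rph3al at 163 against 15.2, and among the lower were Mlph at 7.87 against 28.9 and Sytl2, which is also on the goblet cell list, at 8.35 against 28.3.

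The proton pump that acidifies granules differed less. Among V-type pump subunits, 6 of 18 measured members were higher and 0 lower, and the median log2 ratio was 0.74. The higher ones were Atp6v1g2 (17.3 against 3.86), Atp6v0e2 (91.0 against 26.5), Atp6v1b2 (232 against 80.8), Atp6v1c1, Atp6v1g1 and Atp6v1f, and the isoform Atp6v0a2 lay farthest in the other direction at 247 against 447. Further upstream, genes of ER translocation and export to the Golgi counted 3 higher and 3 lower of 46 (median 0.32). Those of ER folding and the unfolded protein response counted 5 higher and 2 lower of 34 (median 0.45). Hspa5, the ER chaperone BiP, was at 951 against 573, and the protein disulfide isomerase P4hb at 962 against 1731. Ern1, a stress sensor found in most cells, was at 47.2 against 21.2, and its epithelial paralog Ern2 at 3.0 against 19.8. Within 2-fold lay 40 of the 46 and 27 of the 34.

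**Figure D3:**
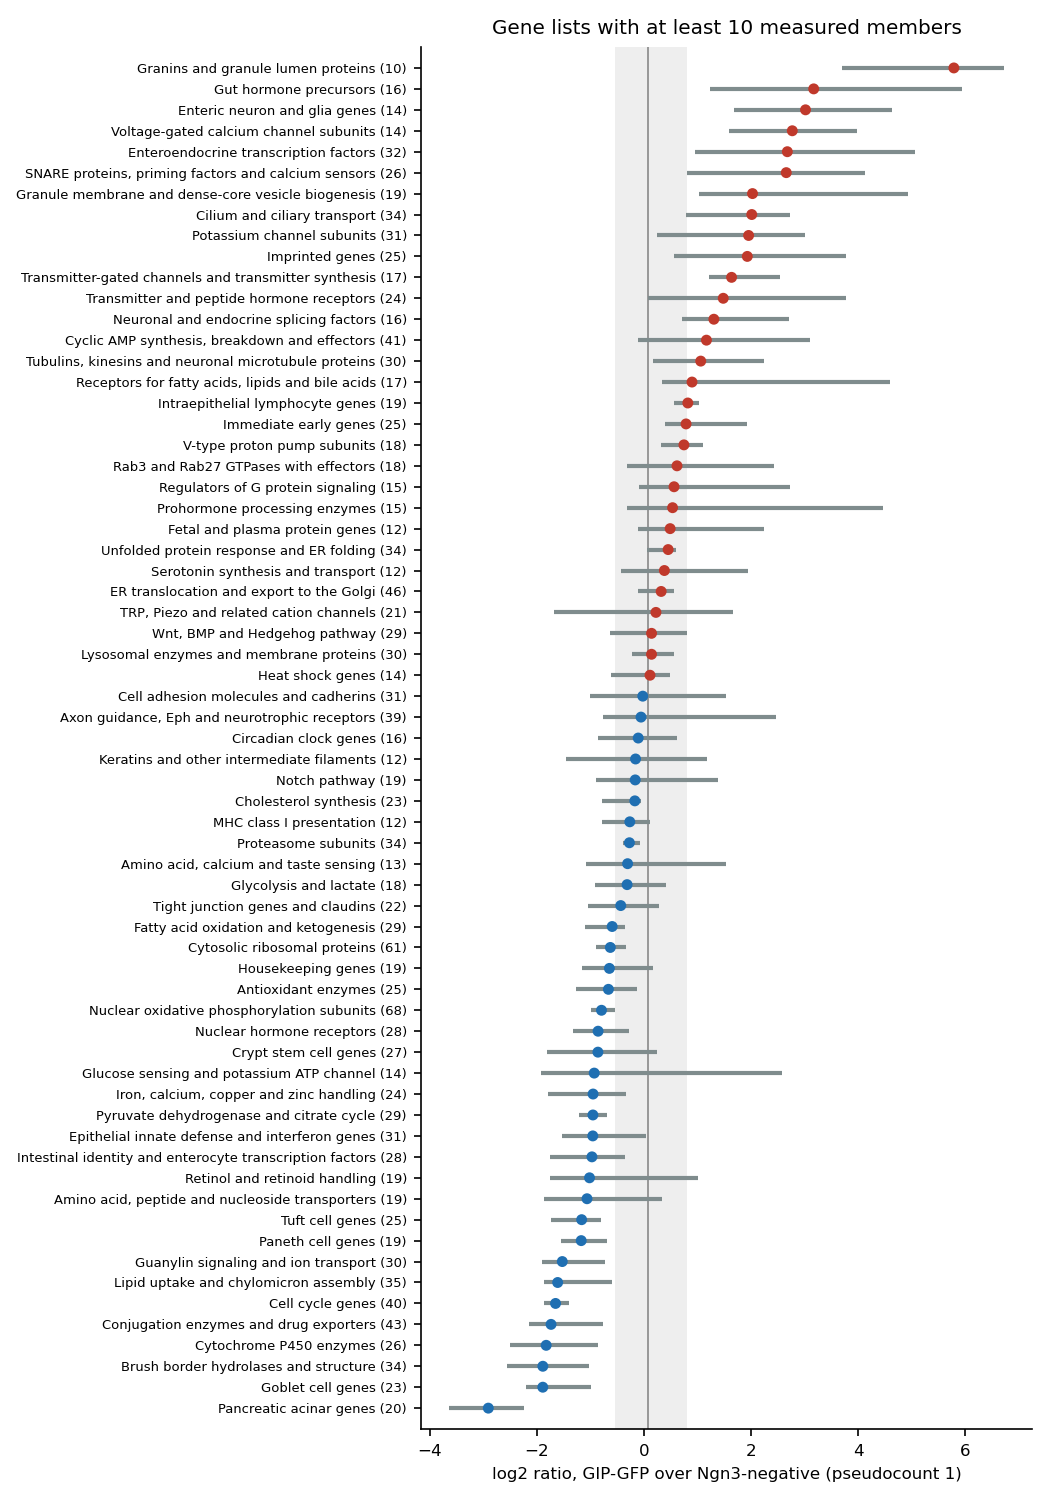
Median log2 ratio of each gene list with at least 10 measured members (points, red above 0 and blue below) and its quartiles (bars), for GIP-GFP over Ngn3-negative; the number of measured members is in parentheses, the gray line is the median of all 13471 genes and the gray band their quartiles. Granins lie highest at 5.78 and pancreatic acinar genes lowest at -2.91.

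Transcription factors of endocrine cells formed the next group. Of the list, 24 of 32 measured members were higher and 2 lower, and the median log2 ratio was 2.67 (range 1.97 to 3.20). Besides Isl1 and Rfx6, Pax6 was at 499 against 3.08 scaled FPKM, a log2 ratio of 6.94 (6.64 to 7.24), Fev at 253 against 2.54 and Insm1 at 542 against 6.78. Nkx2-2 was at 202 against 3.49, Neurod1 at 390.3 against 11.2 and Myt1 at 105 against 1.87, all of them known from islet development as well. Hhex, which acts in somatostatin cells of the islet, was at 48.3 against 1.11, and Pdx1, the duodenal and beta cell factor, at 74.6 against 15.1. Neurog3, which is expressed in progenitors before hormones appear, was at 4.44 against 13.8 scaled FPKM, a log2 ratio of -1.44 (-1.87 to -1.01), and was among the lower members. Lmx1a, a factor of the serotonin lineage, was at 2.62 against 2.14 and Casz1 at 43.1 against 44.2.

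Factors of intestinal identity separated into those held at a like level and those that were lower. Over the list, 1 of 28 measured members were higher and 13 lower, and the median log2 ratio was -0.97. Cdx2, which sets intestinal fate, was at 198 against 216, Gata4 at 109 against 139, Gata5 at 60.1 against 57.8 and Elf3 at 397 against 511. Hnf4a, which drives enterocyte genes, was at 267 against 481 and its paralog Hnf4g at 115 against 395 scaled FPKM, a log2 ratio of -1.78 (-1.83 to -1.72). The lower end held Maf at 24.1 against 131 scaled FPKM, a log2 ratio of -2.40 (-2.53 to -2.27), Creb3l3, a lipid-responsive factor, at 91.2 against 434, the secretory lineage factor Atoh1 at 5.10 against 26.8, Isx, which limits vitamin A uptake, at 45.1 against 169.8, and Hes1, a Notch target, at 26.2 against 92.9. Id2, an inhibitor of bHLH factors, was the member past 2-fold in the higher direction at 205 against 87.2. Of nuclear hormone receptors, 1 of 28 measured members were higher and 13 lower, and the median log2 ratio was -0.86. The xenobiotic receptor Nr1i3 was at 11.7 against 90.9, Esrra, a driver of mitochondrial genes, at 65.6 against 216, and the bile acid receptor Nr1h4 at 64.3 against 59.7.

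The 250 bases before the start of genes at the lower end are shown for an HNF4 word, because HNF4 factors are known regulators of enterocyte genes. CAAAGTCCA, searched on both strands, was found in 8 of 217 promoters (3.69%) of genes at least 4-fold lower, in 4 of 774 (0.517%) of genes at least 4-fold higher and in 0.508% of all 9451 windows. AGATAA was found in 18.4% of promoters of the 4-fold lower genes, 7.11% of the 4-fold higher and 6.51% of all, and TATAAA in 20.7%, 8.53% and 7.84%. Most of the 11 words searched were more frequent in the lower set. The AP-1 word TGACTCA was in 10.6% of it against 3.77% of all, GTTAAT in 8.76% against 4.53%, the homeodomain word TAATTA in 7.37% against 2.66% and the CDX word TTTATG in 10.1% against 6.48%. The KLF word GGGTGTGG was in 5.99% against 3.98% and the NEUROD1 word CATCTG in 18% against 11.3%. The cyclic AMP response word TGACGTCA, in 1.38% against 3.42%, and the RFX word GTTGCC, in 11.5% against 12.6%, were less frequent there. Genes listed at 0 in a library were left out of these sets. Promoters of the lower genes also held fewer CpG pairs, with a median observed over expected ratio of 0.239 against 0.679 in the higher genes and 0.759 in all. The letters in capitals mark the HNF4 word in the promoters of the cytochrome P450 gene Cyp3a11 (chr5:145879855-145880104, minus strand), the calcium channel gene Trpv6 (chr6:41636406-41636655, minus strand) and the intestinal alkaline phosphatase gene Alpi (chr1:87101607-87101856, minus strand), from RefSeq on GRCm38.p6:
Cyp3a11: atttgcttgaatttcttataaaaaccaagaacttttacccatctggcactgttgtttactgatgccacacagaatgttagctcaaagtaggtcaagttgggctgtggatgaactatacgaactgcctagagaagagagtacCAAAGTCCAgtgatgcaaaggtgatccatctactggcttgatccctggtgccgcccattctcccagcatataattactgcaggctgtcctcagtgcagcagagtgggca
Trpv6: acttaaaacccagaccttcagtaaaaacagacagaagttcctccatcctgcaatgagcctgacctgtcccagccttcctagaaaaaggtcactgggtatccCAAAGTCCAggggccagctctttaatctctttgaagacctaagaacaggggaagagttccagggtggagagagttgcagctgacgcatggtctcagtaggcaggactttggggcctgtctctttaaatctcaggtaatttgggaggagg
Alpi: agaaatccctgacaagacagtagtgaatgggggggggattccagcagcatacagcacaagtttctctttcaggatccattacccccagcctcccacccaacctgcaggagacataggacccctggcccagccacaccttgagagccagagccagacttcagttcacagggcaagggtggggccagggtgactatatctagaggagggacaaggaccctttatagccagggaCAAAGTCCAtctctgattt
Of the genes of that set with the word before the start, these had the lowest ratios, at 55.6 against 510.4, 0.105 against 6.96 and 222 against 1418 scaled FPKM, and the word starts at -109, -149 and -19 from the start.

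Channels that make a cell electrically excitable were mostly higher in GIP-GFP. For voltage-gated calcium channel subunits, 12 of 14 measured members were higher and 0 lower, and the median log2 ratio was 2.77 (range 1.63 to 4.16). The pore-forming subunit of P/Q-type channels, Cacna1a, stood at 139 against 4.74 scaled FPKM, a log2 ratio of 4.61 (4.49 to 4.73). The L-type pores Cacna1c and Cacna1d stood at 18.2 against 0.212 and at 12.9 with Ngn3-negative listed at 0, and the T-type pore Cacna1h at 43.2 against 1.91. Auxiliary subunits went the same way: Cacna2d1 at 106 against 1.93 scaled FPKM, a log2 ratio of 5.19 (5.04 to 5.35), Cacnb2 at 32.8 against 0.223 and Cacnb3 at 88.1 against 12.4. The smallest log2 ratio in the list was 0.48, for Cacnb4.

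Sodium channel subunits were fewer. Of 7 measured, 5 were higher and 1 lower, and 10 more stayed under 1 scaled FPKM in both libraries. Scn3a, a pore-forming subunit, stood at 10.3 against 1.13 scaled FPKM, a log2 ratio of 2.40 (2.24 to 2.57), its partner subunit Scn3b at 8.32 against 0.115, and Scn2b was the lower one at 2.65 against 8.13. Hcn4, a pacemaker channel, stood at 32.2 against 0.349 scaled FPKM, a log2 ratio of 4.62 (4.40 to 4.84), and the receptor-operated cation channels Trpc1 and Trpc5 at 28.4 against 0.698 and 10.7 against 0.0983. Trpa1, the irritant sensor of enterochromaffin cells, was at 2.25 against 2.87. In the same list of cation channels the lower members included Trpm4 at 39.4 against 165, the tuft cell channel Trpm5 at 6.87 against 25.3 and the calcium uptake channel Trpv6. Over that list, 9 of 21 measured members were higher and 6 lower, and the median log2 ratio was 0.22 (range 0.02 to 0.92).

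Potassium channels lay on both sides. 19 of 31 measured subunits were higher, 7 were lower, and the median log2 ratio was 1.95 (range 0.26 to 3.48). A further 32 listed subunits were under the filter. Higher were the G protein-gated inward rectifiers Kcnj3 (136 against 1.02), Kcnj5 (43.9 against 0.336) and Kcnj6 (8.35 against 0.121). Voltage-gated subunits of neurons and islets were also higher, with Kcnb2 at 16.2 against 0.252, Kcnh6 at 79.4 against 3.30 and Kcnh2 at 13.2 against 0.547. The lower subunits included some that carry potassium in salt-secreting and absorbing epithelium: the pore Kcnq1 at 29.3 against 101, its partner Kcne3 at 62.0 against 255 scaled FPKM, a log2 ratio of -2.02 (-2.26 to -1.78), the calcium-activated Kcnn4 at 19.9 against 72.6 and the background channel Kcnk5 at 9.33 against 57.7 scaled FPKM, a log2 ratio of -2.51 (-2.70 to -2.32). Also lower were Kcns3, a modifier of voltage-gated channels, at 1.11 against 8.33 and the background channels Kcnk10 at 2.74 against 10.7 and Kcnk6 at 3.39 against 12.1, and Kcnk1 was at a like level, 62.3 against 62.9.

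The ATP-sensitive potassium channel ties glucose metabolism to membrane voltage in beta cells. Besides Abcc8, its pore Kcnj11 stood at 119.7 against 1.13 scaled FPKM, a log2 ratio of 5.82 (5.52 to 6.13). Hk2, a low-Km hexokinase, stood at 137 against 14.7. Sugar carriers and enzymes of the enterocyte were lower or at a like level. The basolateral glucose carrier Slc2a2 was at 32.1 against 210.3 scaled FPKM, a log2 ratio of -2.67 (-2.80 to -2.55), the fructose enzyme Khk at 147 against 591, the apical sodium-coupled carrier Slc5a1 at 494 against 1015, and the fructose carrier Slc2a5 at 77.0 against 88.8. Of the 14 measured members, 4 were higher and 7 lower, and the median log2 ratio was -0.93 (range -1.13 to -0.16).

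**Figure D4:**
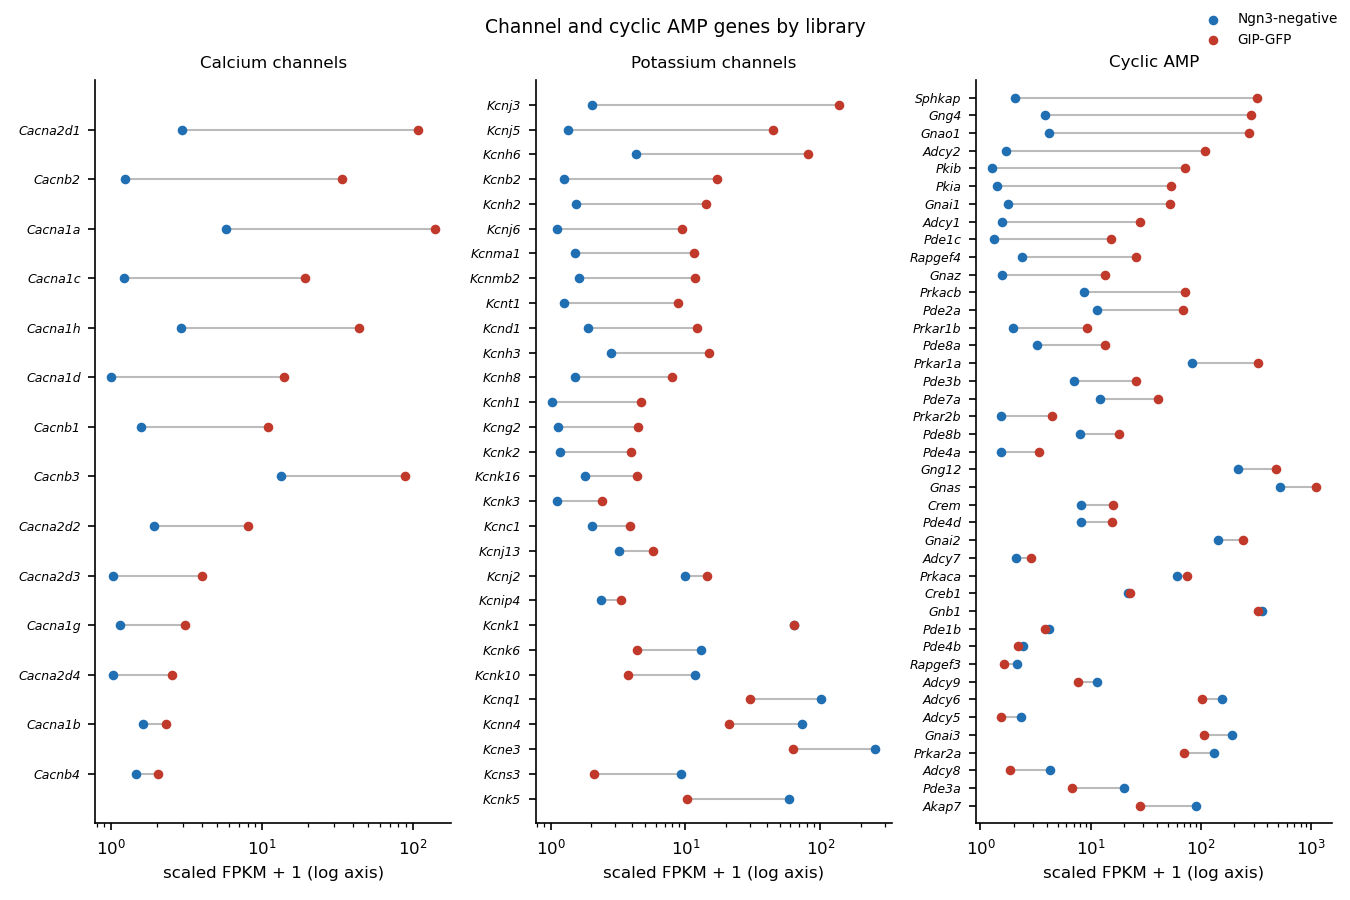
Levels of measured calcium channel, potassium channel and cyclic AMP genes in GIP-GFP (red) and Ngn3-negative (blue), as scaled FPKM plus 1 on log axes, 1 pooled library each, ordered by ratio. Sphkap lies at 322 against 1.06 and Kcne3 at 62.0 against 255.

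Receptors for transmitters also carried different levels. In the list of transmitter-gated channels and transmitter synthesis, 14 of 17 measured genes were higher and 1 lower, but most were low: 6 were listed at 0 in a library and 35 further members were under the filter. Gabbr1, a subunit of the metabotropic GABA receptor, stood at 97.1 against 5.74 scaled FPKM, a log2 ratio of 3.86 (3.65 to 4.08), Grik5, a kainate receptor subunit, at 53.2 against 4.59, and Chrnb2, a nicotinic subunit, at 12.8 with Ngn3-negative listed at 0. For metabotropic transmitter and peptide receptors, 14 of 24 measured members were higher and 2 lower, and the median log2 ratio was 1.48 (range 0.45 to 3.68). A further 31 listed receptors were under the filter. Chrm4, an inhibitory muscarinic receptor, stood at 141 against 0.579 scaled FPKM, a log2 ratio of 6.49 (6.24 to 6.74), and Galr1, an inhibitory galanin receptor, at 93.4 against 0.924 scaled FPKM, a log2 ratio of 5.62 (5.36 to 5.87). Somatostatin receptors were on the same side: Sstr1 at 85.3 against 3.53, Sstr5 at 45.1 against 1.14, Sstr3 at 19 against 0.228 and Sstr2 at 6.02 against 0.618. Adra2a, an adrenergic receptor of the epithelium, was at 6.24 against 20.7, and Gipr, the receptor of GIP, at 3.93 against 0.876.

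Receptors for nutrients were on both sides. Of receptors for fatty acids, lipids and bile acids, 8 of 17 measured members were higher and 4 lower, and the median log2 ratio was 0.90 (range 0.39 to 2.17). Ffar1 stood at 116 against 1.70, Ffar4 at 140.4 against 4.88 scaled FPKM, a log2 ratio of 4.59 (4.28 to 4.90), Ffar3 at 55.4 against 6.53 and Gpr119 at 97.2 against 0.659, while Ffar2, a receptor for short-chain fatty acids, was at 6.41 against 4.85. The bile acid receptor Gpbar1 was at 11.9 and listed at 0 in Ngn3-negative. Gpr142, a receptor for aromatic amino acids, stood at 39.9 against 0.200 scaled FPKM, a log2 ratio of 5.09 (4.70 to 5.48), the calcium-sensing receptor Casr at 2.66 against 0.347, and Gprc6a at 2.00 against 0.0372. Of the amino acid, calcium and taste list 5 of 13 were higher and 5 lower. The median of that list, -0.31 (range -1.02 to 0.30), changed sign under some settings.

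Cyclic AMP is the messenger through which several of these receptors raise or lower release. Over its list, 23 of 41 measured members were higher and 3 lower, and the median log2 ratio was 1.16 (range 0.87 to 1.86). Sphkap, an anchoring protein for the type I regulatory subunit of protein kinase A, stood at 322 against 1.06 scaled FPKM, a log2 ratio of 7.29 (7.09 to 7.49). The inhibitory G protein subunits Gnao1 and Gnai1 stood at 273 against 3.14 scaled FPKM, a log2 ratio of 6.05 (5.86 to 6.23) and 51.2 against 0.781, and Gng4, a gamma subunit, at 282 against 2.81 scaled FPKM, a log2 ratio of 6.22 (6.00 to 6.43), while the more general Gnai3 was at 107 against 192 and Gnb1 at 328 against 355. Among adenylyl cyclases, Adcy2 stood at 107 against 0.696 scaled FPKM, a log2 ratio of 6.00 (5.79 to 6.20) and Adcy1 at 27.2 against 0.551, Adcy6 at 102 against 153 and Adcy9 at 6.67 against 10.4. Both inhibitor peptides of protein kinase A in the list were higher, Pkib at 71.3 against 0.279 scaled FPKM, a log2 ratio of 5.82 (5.66 to 5.98) and Pkia at 52.4 against 0.421. The regulatory subunit Prkar1a was at 331 against 81.9, the catalytic subunit Prkacb at 70.8 against 7.71, and Rapgef4, the other cyclic AMP effector Epac2, at 24.9 against 1.37. The lower members were Akap7 at 26.9 against 88.3, Pde3a at 5.81 against 19.1 and Adcy8 at 0.849 against 3.31. Rgs4, which speeds the shutdown of Gi and Gq signals, stood at 1054 against 3.35 scaled FPKM, a log2 ratio of 7.92 (7.71 to 8.13) and Rgs11 at 243 against 3.40. The tuft cell member Rgs13 was at 7.93 against 40.3.

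Genes of the primary cilium, an antenna-like organelle built by intraflagellar transport, were higher as a group. Of 34 measured members 24 were at least 2-fold higher and 0 lower, with a median log2 ratio of 2.01 (range 1.19 to 2.25), against 21.1% and 13.7% of all genes. The levels were modest. Ift57, a transport subunit (uc007zkf.1, chromosome 16, 49699294 to 49765126), stood at 23.8 against 0.335 scaled FPKM, a log2 ratio of 4.21 (3.95 to 4.48), Ift81 at 25.8 against 1.33 scaled FPKM, a log2 ratio of 3.52 (3.23 to 3.82) and Ift80 at 26.2 against 2.76. The small GTPases Arl6 and Arl3, which load and unload ciliary cargo, stood at 26.8 against 0.949 scaled FPKM, a log2 ratio of 3.83 (3.43 to 4.24) and 92.0 against 7.48 scaled FPKM, a log2 ratio of 3.45 (3.11 to 3.80), and Tulp3, an adaptor for ciliary receptors, at 26.2 against 1.35 scaled FPKM, a log2 ratio of 3.54 (3.29 to 3.78). Members of the BBSome coat were higher too, with Bbs7 at 16.7 against 2.37, Bbs1 at 8.47 against 0.803 and Bbs4 at 24.6 against 4.39, as were the transition zone gene Tctn2 at 14.9 against 2.55 and the motor genes Dync2h1 at 14.4 against 1.61 and Kif3a at 12.1 against 2.11. Within 2-fold lay 10 members, among them Ift20 (169 against 147), Ift52 (38.5 against 38.1) and Ift140 (11.2 against 12.3).

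RFX factors are known regulators of ciliary genes. Rfx2 stood at 32.0 against 2.42 scaled FPKM, a log2 ratio of 3.27 (3.04 to 3.50) and Rfx3 at 26.4 against 3.09 scaled FPKM, a log2 ratio of 2.75 (2.61 to 2.88), Rfx6, which is not a cilium list member, at 1059 in GIP-GFP, and Rfx1 at 17.8 against 22.1. The RFX half-site GTTGCC, searched on both strands, was found in 15 of 27 cilium promoters (55.6%), in 143 of 774 promoters of 4-fold higher genes (18.5%), in 25 of 217 of 4-fold lower genes (11.5%) and in 12.6% of all 9451 windows. Within the cilium list it was found in 12 of 19 promoters of members at least 2-fold higher and in 3 of 8 of those within 2-fold. The 250 bases before the start are shown for the members with the highest ratios that held the half-site (capitals) there and were above 0 in both libraries, from RefSeq on GRCm38.p6: Ift57 (chr16:49699044-49699293, plus strand), Rfx2 (chr17:56831009-56831258, minus strand) and Bbs7 (chr3:36613390-36613639, minus strand).
Ift57: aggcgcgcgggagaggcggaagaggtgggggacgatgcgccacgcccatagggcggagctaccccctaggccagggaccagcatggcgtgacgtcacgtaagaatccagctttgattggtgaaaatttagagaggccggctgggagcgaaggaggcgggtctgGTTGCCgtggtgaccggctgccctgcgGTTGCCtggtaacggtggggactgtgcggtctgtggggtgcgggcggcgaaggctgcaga
Rfx2: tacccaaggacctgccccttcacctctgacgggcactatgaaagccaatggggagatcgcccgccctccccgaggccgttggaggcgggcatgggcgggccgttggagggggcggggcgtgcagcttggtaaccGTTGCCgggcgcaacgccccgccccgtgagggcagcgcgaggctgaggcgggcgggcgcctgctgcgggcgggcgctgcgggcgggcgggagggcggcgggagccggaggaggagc
Bbs7: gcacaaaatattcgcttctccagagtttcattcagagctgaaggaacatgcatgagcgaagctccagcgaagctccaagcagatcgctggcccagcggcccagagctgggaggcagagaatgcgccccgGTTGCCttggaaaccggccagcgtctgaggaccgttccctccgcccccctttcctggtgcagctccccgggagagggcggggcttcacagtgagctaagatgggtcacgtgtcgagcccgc
The half-site starts at -87 and -60 in Ift57, at -116 in Rfx2 and at -121 in Bbs7.

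Imprinted genes, which are expressed from the allele of 1 parent in at least some tissues, formed another group. Alleles were not measured here. Of the list, 17 of 25 measured members were higher and 2 lower, and the median log2 ratio was 1.93 (range 1.25 to 2.54). Members of the domain on chromosome 12 that holds Dlk1 and Meg3 were under 1 scaled FPKM in Ngn3-negative. The long noncoding RNA Meg3 (uc011ysb.1, chromosome 12, 109546430 to 109571729) stood at 83.9 against 0.975 scaled FPKM, a log2 ratio of 5.43 (4.93 to 5.93), its neighbor Rian (uc011ysv.2, chromosome 12, 109649617 to 109651495) at 21 against 0.110 scaled FPKM, a log2 ratio of 4.31 (4.07 to 4.54), and the Notch-like protein gene Dlk1 (uc007pao.2, chromosome 12, 109453455 to 109463336) at 19.4 against 0.0426 scaled FPKM, a log2 ratio of 4.29 (4.15 to 4.44). Mirg, in the same domain, was at 1.99 with Ngn3-negative listed at 0. On chromosome 7 the zinc finger gene Peg3 was at 92.0 against 2.09 scaled FPKM, a log2 ratio of 4.91 (4.76 to 5.06) and the adjacent Usp29 at 1.62 against 0.0964, and on chromosome 2 Nnat, which lies within an intron of Blcap, was at 156 against 4.18 scaled FPKM, a log2 ratio of 4.92 (4.54 to 5.31) and Blcap at 185 against 47.9. No strand of the reads is stated in the sources used here, so reads of overlapping genes such as this pair cannot be told apart. Imprinted genes near the distal end of chromosome 7 lay on both sides: Cdkn1c, a brake on the cell cycle, stood at 382 against 7.81 scaled FPKM, a log2 ratio of 5.44 (5.24 to 5.65) and Cd81 at 962 against 235, while Ascl2, a stem cell factor, was at 4.39 against 23.4 and Igf2 at 0.422 against 3.68. Ddc, listed here and among serotonin genes, makes dopamine and serotonin and was at 1398 against 241.

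**Figure D5:**
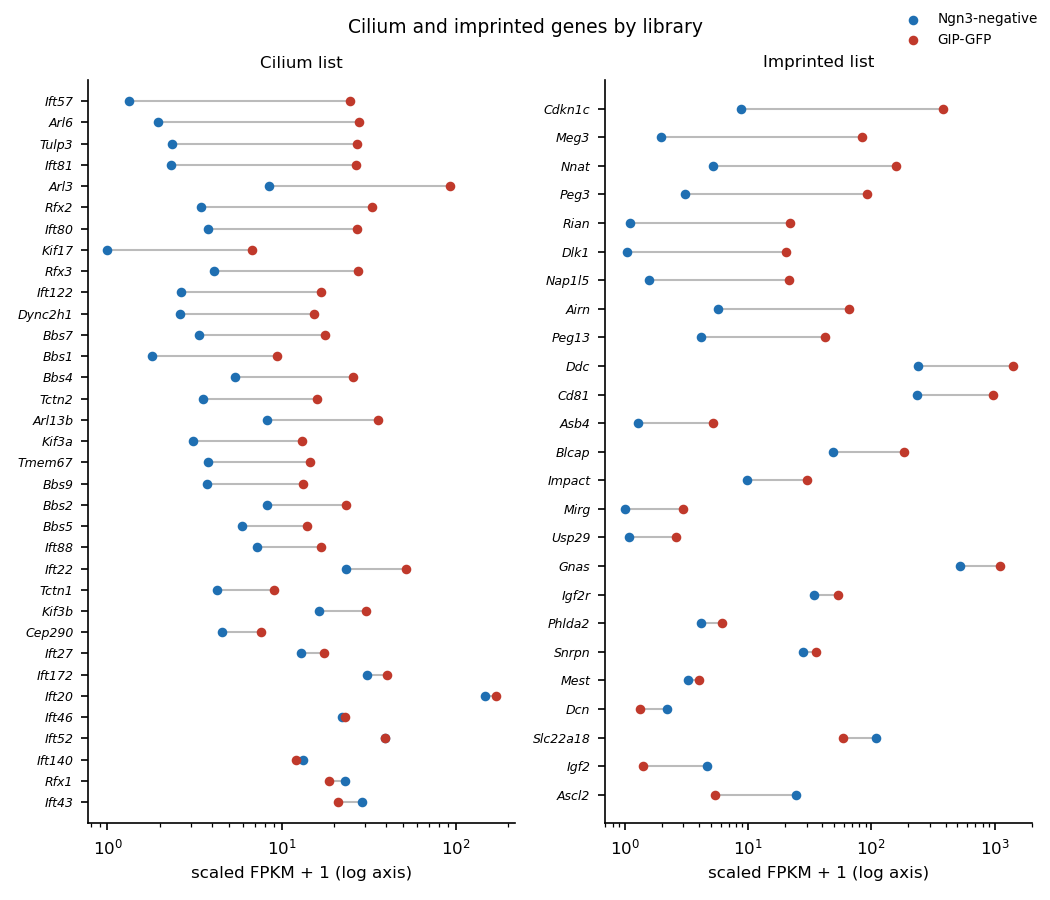
Levels of each measured member of the cilium list (left) and the imprinted list (right) in GIP-GFP (red) and Ngn3-negative (blue), as scaled FPKM plus 1 on log axes, 1 pooled library each, ordered by ratio. In the cilium list 24 of 34 members are at least 2-fold higher in GIP-GFP and none is 2-fold lower; in the imprinted list 17 of 25 are higher and 2 lower.

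Genes known best from neurons were also among the higher. Of tubulins, kinesins and microtubule proteins, 15 of 30 measured members were higher and 1 lower, and the median log2 ratio was 1.06. The microtubule-binding proteins Map1b and Map2 stood at 56.4 against 0.604 scaled FPKM, a log2 ratio of 5.16 (5.04 to 5.28) and 54.8 against 1.13, the neuronal motor heavy chain Kif5c at 15 against 0.0714 and its ubiquitous paralog Kif5b at 73.8 against 67.7. Tuba1a was at 63.2 against 5.15, whereas Tubb5 was at 121 against 231. The neurofilament genes Nefl and Nefm stood at 115 against 0.554 scaled FPKM, a log2 ratio of 6.22 (5.93 to 6.51) and 93.4 against 1.03 scaled FPKM, a log2 ratio of 5.54 (5.30 to 5.77), and Th, the first enzyme of catecholamine synthesis, at 235 against 0.925 scaled FPKM, a log2 ratio of 6.94 (6.62 to 7.25). Of the enteric neuron and glia list, which holds Nefl, Nefm, Th and Ddc, 12 of 14 measured genes were higher, 0 lower, and the median was 3.01 (range 1.56 to 4.34). The glial factor Sox10 was listed at 0 in both libraries, and Elavl4 stayed under 1 scaled FPKM in both, at 0.385 against 0.0244. Splicing factors of neurons and endocrine cells gave 9 of 16 higher and 0 lower, with a median of 1.30. Celf3 stood at 412 against 6.88 scaled FPKM, a log2 ratio of 5.71 (5.51 to 5.91) and Rbfox3, the antigen NeuN, at 21.1 against 0.0264, while the epithelial splicing regulators Esrp1 and Esrp2 were at 79.7 against 105 and 41.7 against 45.3.

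Receptors for growth and guidance cues split. Of the list, 14 of 39 were higher and 8 lower, and the median of -0.06 changed sign with the scaling. The receptors of the GDNF family were higher, with Gfra3 at 326 against 4.81 scaled FPKM, a log2 ratio of 5.81 (5.59 to 6.04), Gfra1 at 28.9 against 0.297 and their shared kinase Ret at 28.8 against 1.34. Ephrins and their receptors lay on both sides, with Efnb2 at 12.7 against 55.8 and Epha1 at 14.7 against 64.4 but Efna2 at 4.61 against 0.403 and Epha7 at 4.49 against 0.422. The semaphorin gene Sema3b was lowest of the list at 16.8 against 136 scaled FPKM, a log2 ratio of -2.95 (-3.15 to -2.74). Among adhesion genes, 9 of 31 were higher and 9 lower, and their median of -0.02 also changed sign with the scaling. Itga4, an integrin of migrating cells, stood at 82.7 against 0.640 scaled FPKM, a log2 ratio of 5.67 (5.54 to 5.81), Ncam2 at 30.1 against 0.604 and Cd24a at 1977 against 269, whereas the epithelial cadherin Cdh1 was at 448 against 440.3, Epcam at 1083 against 1723 and the hemidesmosome integrin Itgb4 at 18.3 against 78.9. Of tight junction genes, Cldn1 stood at 24.8 against 0.0904 and Cldn4 at 375 against 139, with Cldn15, which forms sodium pores, at 199 against 705 and Cldn7 at 1000.2 against 1272. The Notch ligand genes Jag2 and Dll4 stood at 14.6 against 2.03 and 36.6 against 12.8, and the receptor Notch1 at 3.70 against 12.5.

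Metabolic genes were lower or near the middle with a few high members, and lists outside metabolism also had medians below 0. Among 19 housekeeping genes 6 were lower and 0 higher (median -0.65), and among 61 cytosolic ribosomal protein genes 12 were lower and 2 higher (median -0.63). Of pyruvate dehydrogenase and citrate cycle genes, 1 of 29 measured members were higher and 12 lower, and the median log2 ratio was -0.95. Pdk4, the kinase that shuts pyruvate dehydrogenase, was the higher one at 421 against 35.0 scaled FPKM, a log2 ratio of 3.55 (3.47 to 3.63), while Pdk2 and Pdk3 were at 85.0 against 82.9 and 41.7 against 36.8. Mdh2, an abundant cycle enzyme, was at 744 against 1898 scaled FPKM, a log2 ratio of -1.35 (-1.39 to -1.31), and Pcx, which feeds the cycle from pyruvate, at 6.03 against 21.2. The lower count of 12 became 18 with equal totals, and equal totals without the most abundant genes brought it to 8. Of 68 nuclear subunits of oxidative phosphorylation 16 were lower and 0 higher (median -0.79). The lower count was 34 with equal totals and 5 with equal totals without the most abundant genes. Atp5g3, the most abundant of them in GIP-GFP, was at 1549 against 2782 and Ndufa1 at 401 against 318. Among 18 glycolysis genes 2 were higher and 4 lower (median -0.32), with Pfkm at 30.4 against 11.1 and Ldha, which makes lactate, at 498 against 1080.3. Among 29 genes of fatty acid oxidation 1 was higher and 9 lower (median -0.59). Hadh, a step of the oxidation cycle, was at 427 against 919.8, Acat1 at 42.1 against 146, the coactivator Ppargc1a at 5.02 against 29.0 and Cpt1a, which admits fatty acids to mitochondria, at 108 against 163, while Acadl was at 313 against 173 and Cpt1c, the neuronal form, at 11.1 against 0.540.

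Antioxidant and retinoid genes had members far above their medians of -0.66 and -1.02. Gpx3, a secreted glutathione peroxidase, stood at 1311 against 14.2 scaled FPKM, a log2 ratio of 6.43 (6.26 to 6.60), and Gclc, which limits glutathione synthesis, at 267 against 51.1, whereas Gpx1 was at 294 against 918 and Gpx2 at 271 against 430.2. Of 25 measured antioxidant genes 4 were higher and 9 lower. Rbp4, the plasma retinol carrier, stood at 2368 against 9.01 scaled FPKM, a log2 ratio of 7.89 (7.61 to 8.17), its carrier partner Ttr at 112 against 19.8 and the carotene-cleaving Bco1 at 53.2 against 3.17. Retinol enzymes of the enterocyte were lower, with Lrat at 4.91 against 16.9, Rdh7 at 47.7 against 226 and Retsat at 52.7 against 212. Cholesterol synthesis lay near the middle with a median of -0.17. In that list Stard4, a sterol carrier, was at 41.6 against 127.

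Digestion and absorption made up the lower end. Of brush border genes, 0 of 34 measured members were higher and 26 lower, and the median log2 ratio was -1.89. Akp3, a duodenal alkaline phosphatase, was at 56.7 against 667 scaled FPKM, a log2 ratio of -3.53 (-3.65 to -3.41), Cubn, the vitamin B12 receptor subunit, at 5.64 against 54.2 scaled FPKM, a log2 ratio of -3.06 (-3.17 to -2.94), Tmprss15, the enteropeptidase, at 2.11 against 22.5, and Lct, lactase, at 85.2 against 501. The level that remained in GIP-GFP ranged from 8.50% to 132% of that in Ngn3-negative, with a median of 26.9%. Xpnpep2, an aminopeptidase, was at 79.9 against 65.9, Dpp4, the peptidase that inactivates GIP, at 217 against 203, and Cdhr5, another microvillus linker, at 662 against 779. These genes were at like levels in both sorts.

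Lipid handling followed the same direction with exceptions. Of 35 measured members 24 were lower and 4 higher, with a median of -1.61. The apolipoproteins Apoa4 and Apoc3 were at 947 against 5485 scaled FPKM, a log2 ratio of -2.53 (-2.56 to -2.50) and 371 against 2096, Mttp, which loads chylomicrons, at 266 against 1062, and the sterol exporter Abcg5 at 70.5 against 384. Scarb1, a receptor for lipoproteins, was higher at 421 against 12.6 scaled FPKM, a log2 ratio of 4.96 (4.78 to 5.14), as were Pnliprp2 at 101 against 28.0, Mgll at 13.1 against 4.29 and the cholesterol exporter Abca1 at 16.6 against 7.40. Fabp1, the liver-type fatty acid binding protein, was at 2277 against 7647.

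Transport and detoxification genes were mostly lower. For amino acid, peptide and nucleoside transporters, 4 of 19 measured members were higher and 10 lower, and the median log2 ratio was -1.06. Slc6a19, the main neutral amino acid carrier of the brush border, was among the higher at 926 against 304, as was the nucleoside carrier Slc29a1 at 141 against 33.3, while the nucleoside carrier Slc28a2 was at 9.10 against 70.3 and the peptide carrier Slc15a1 at 89.9 against 156. Of iron, calcium, copper and zinc genes 10 of 24 were lower and 0 higher. S100g, the calcium-ferrying calbindin, was at 87.1 against 1177 scaled FPKM, a log2 ratio of -3.74 (-4.01 to -3.47), the lowest of them, with the calcium entry channel Trpv6 at 0.105 against 6.96 scaled FPKM, a log2 ratio of -2.85 (-3.09 to -2.60), the ferritin chain Fth1 at 1527 against 4420.3 and the iron carriers Slc11a2 and Slc40a1 at 28.6 against 57.1 and 31.3 against 54.7. Of cytochrome P450 genes, 1 of 26 measured members were higher and 19 lower, and the median log2 ratio was -1.83. Cyp2c29 was at 4.46 against 79.0 scaled FPKM, a log2 ratio of -3.87 (-4.20 to -3.55), Cyp3a11 at 55.6 against 510.4 scaled FPKM, a log2 ratio of -3.17 (-3.28 to -3.07), and the higher one, Cyp4b1, at 215 against 90.4. Conjugation enzymes and exporters gave 29 of 43 lower and 0 higher, with a median of -1.74 and with Ces2a at 43.8 against 358, Gsta1 at 14.5 against 122 and Abcc2 at 50.3 against 311. Of guanylin and ion transport genes 21 of 30 were lower and 3 higher. The hormone genes Guca2a and Guca2b were at 194 against 898 and 343 against 1793 and the chloride channel Cftr at 23.9 against 87.8, while the guanylin receptor Gucy2c was at 466 against 195 and Car8, a carbonic anhydrase relative that lacks catalysis, at 218 against 9.29 scaled FPKM, a log2 ratio of 4.41 (4.30 to 4.52).

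Other epithelial lineages and dividing cells were lower in GIP-GFP by list. Goblet genes gave 17 of 23 lower and 1 higher, with a median of -1.89. Zg16 was at 1951 against 15647 scaled FPKM, a log2 ratio of -3.0 (-3.04 to -2.96) and Fcgbp, a mucus protein, at 662 against 3457, whereas Fxyd3, a regulator of the sodium pump, was at 580.1 against 62.9 scaled FPKM, a log2 ratio of 3.18 (2.99 to 3.38). Paneth genes gave 11 of 19 lower and 2 higher, Wnt3, a niche signal, being at 35.7 against 2.24 scaled FPKM, a log2 ratio of 3.50 (3.26 to 3.74) and the lysozyme Lyz1 at 669.9 against 1161. Defensin copies share reads, so their split is uncertain. Tuft genes gave 15 of 25 lower and 2 higher, with the leukotriene synthase Ltc4s at 5.96 against 43.9 and Kctd12 at 189.6 against 41.4. Of 40 measured cell cycle genes 36 were lower and 0 higher (median -1.65). Top2a, of the S and G2 phases, was at 31.6 against 117, Mki67 at 18.2 against 66.7 and Ccnb2 at 17.3 against 79.5, and Tk1, Cdc20, Gins2 and Kif20a were listed at 0 in GIP-GFP. Crypt stem cell genes gave 11 of 27 lower and 5 higher, with Lgr5 at 3.94 against 21.2. The higher ones included Cd44 at 401 against 21.3 scaled FPKM, a log2 ratio of 4.17 (4.06 to 4.29), Hopx at 766 against 209 and Msi1 at 34.4 against 10.6.

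The genes farthest below, apart from those listed at 0, included products of stomach and pancreas. Tff1 and Tff2, gastric trefoil peptides, were at 2.67 against 100.3 scaled FPKM, a log2 ratio of -4.79 (-5.81 to -3.77) and 1.58 against 55.2, and the gastrokines Gkn1 and Gkn2 at 0.805 against 30.7 and 3.98 against 74.2. They were named after their values were seen. Of the pancreatic acinar list, 19 of 20 were lower and 0 higher (median -2.91, range -4.01 to -1.69). The trypsinogen Prss2 was at 0.678 against 24.9 scaled FPKM, a log2 ratio of -3.95 (-4.63 to -3.26), the carboxypeptidase Cpa1 at 0.411 against 18.1 and the lipase Pnlip at 1.09 against 25. Zg16, Reg1 and Clps, which intestinal cells also express, belong to that list. Of 5 measured erythroid genes 4 were lower and 0 higher (median -2.72, range -2.91 to -2.09). The lower ones were globin genes, with Hbb-bs at 23.3 against 154, but globin copies share reads. Alas2, the member that is not a globin gene, was at 6.47 against 3.70. Gm15564, annotated as antisense, and the noncoding RNA Rmrp were at 281 against 3450.5 scaled FPKM, a log2 ratio of -3.62 (-3.77 to -3.47) and 10 against 129, and Lars2, a mitochondrial leucyl-tRNA synthetase gene, at 106 against 1287 scaled FPKM, a log2 ratio of -3.59 (-3.64 to -3.53). Reads of an antisense gene and its partner cannot be told apart here. The part of such RNA in other results was not tested.

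Blood cell and stromal genes were mostly low in both libraries. Of 19 measured lymphocyte genes 5 were higher and 0 lower (median 0.82), and the higher count was 2 with equal totals and 9 with equal totals without the most abundant genes. Gzma, a granule protease, was at 241 against 93.8 scaled FPKM, a log2 ratio of 1.35 (1.23 to 1.47), Cd3e at 11.8 against 5.10 and Ptprc, which encodes CD45, at 6.48 against 3.70. The 4 markers summed to 270.5 scaled FPKM in GIP-GFP and 107.6 in Ngn3-negative. Of 9 measured myeloid and mast cell genes 6 were higher and 2 lower, and 12 more were under the filter. The median log2 ratio of the 9 was 1.79 (range 0.12 to 2.08). Kit, a receptor of mast cells, was at 41.6 against 11.3, Fcer1g at 37.5 against 6.52 and Lyz2 at 10.4 against 2.06. The lower ones were the myeloid integrin Itgam at 1.95 against 6.84 and Cd14 at 2.44 against 6.62. The macrophage marker Cd68 was at 2.88 against 5.14, and the myeloid marker Csf1r stayed under the filter at 0.197 against 0.0769. MHC class II genes differed by less than 2-fold in all 7 measured members, with Cd74 at 317 against 319. Of 20 stromal genes 17 were under the filter. Of the 3 measured 2 were higher and 0 lower, with Pecam1 at 1.95 against 0.340. Under the filter, Col1a1 was listed at 0 in GIP-GFP and at 0.0888 in Ngn3-negative, and Acta2 was at 0.0902 against 0.290. Vim, an intermediate filament of mesenchyme that other cells can express, was at 144 against 7.93 scaled FPKM, a log2 ratio of 4.02 (3.81 to 4.23).

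Several groups sat near the middle of all genes. Proteasome subunits had a median of -0.27, with 33 of 34 within 2-fold. Lysosomal genes had 0.14, with 24 of 30 within 2-fold and Ctsf, a cathepsin, at 68.8 against 2.22 scaled FPKM, a log2 ratio of 4.44 (4.14 to 4.73), and heat shock genes 0.11, both changing sign with equal totals. Circadian clock genes had -0.11, changing sign with equal totals without the most abundant genes, with Cry2 at 35.8 against 5.47 and Nr1d1 at 33.5 against 127. Immediate early genes, which dissociation can induce, stood above that middle, with 12 of 25 higher, 2 lower and a median of 0.78: Egr2 was at 103 against 2.10 scaled FPKM, a log2 ratio of 5.06 (4.78 to 5.34), Nr4a2 at 227 against 7.41 scaled FPKM, a log2 ratio of 4.76 (4.57 to 4.95) and Fos at 597 against 519. Y-linked genes were present at like levels, with Ddx3y at 36.1 against 31.2 and Kdm5d at 23.6 against 17.9, and Xist stayed under 1 scaled FPKM in both libraries at 0.322 against 0.148.

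Further genes lay far above. Alpl, the tissue-nonspecific alkaline phosphatase, stood at 241 against 0.427 scaled FPKM, a log2 ratio of 7.41 (7.17 to 7.65), in contrast to its intestinal relatives Alpi and Akp3. Cnr1, the cannabinoid receptor of the lipid receptor list, stood at 338 against 0.698 scaled FPKM, a log2 ratio of 7.64 (7.46 to 7.82) and Fam167a at 341 against 0.807 scaled FPKM, a log2 ratio of 7.56 (7.37 to 7.76). Tmigd3 stood at 276 against 0.951, but its locus overlaps Adora3, and reads of the pair may have been split between them. The gene 1700086L19Rik was at 275 against 0.889. Close behind, and named after their values were seen, were Entpd3, an ectonucleotidase, at 191 against 0.586 scaled FPKM, a log2 ratio of 6.92 (6.70 to 7.14), Hmgn3, a nucleosome-binding protein, at 615 against 4.29, Gatm, which starts creatine synthesis, at 259 against 1.24 and Anxa6, an annexin, at 312 against 2.18. In the library of the whole Neurogenin 3 lineage, Alpl was at 15.7, Entpd3 at 26.2, Gatm at 23.7, Hmgn3 at 152 and Anxa6 at 105 scaled FPKM. All 15 genes farthest below were listed at 0 in GIP-GFP, led by the antisense gene Gm10680 at 2399, Scgb1a1 at 141 and Tk1 at 72.7 in Ngn3-negative. An exact 0 may not mean absence, so no fold is given for such genes. Rpl31, a ribosomal protein gene that every cell uses, was also listed at 0 in GIP-GFP, and at 27.1 in Ngn3-negative. No transcript of Rpl31 was marked as a failed estimate. The values of Cadps, Gnb1, Esrp1 and Nr1i3 include transcripts with a failed estimate.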

How the data were processed

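RNA was measured in 2 pooled libraries of sorted cells, GIP-GFP and Ngn3-negative, from the villous fraction of the upper small intestine. Reads were processed with FastQC, TopHat 1.5.0 and Cufflinks on mm10, per the submitters' processing notes (no Cufflinks version is named there). The authors deposited an FPKM with lower and upper limits and a coverage for each transcript, per the file headers. Within a library the deposited FPKM is a constant multiple of the coverage, and its library term is not stated.

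Transcripts were matched to gene symbols through the GENCODE M21 annotation, 53253 of 59120 of them. FPKM was summed per symbol over transcripts of 200 bases or more, without chrM and transcripts of status HIDATA. Both libraries were then scaled by the same divisor, which sets the gene total averaged over all 3 libraries of the series to 1000000. Ratios between the libraries stay as deposited. A gene was kept if either library reached 1 scaled FPKM. The log2 ratio used a pseudocount of 1. Counting intervals took each deposited limit as 2 standard errors. Coverage times transcript length gave the depth. Motifs were searched in RefSeq promoters of GRCm38.p6. Python 3.11.15, pandas 2.3.3, numpy 2.4.6 and matplotlib 3.10.9 were used, and the calculation was tested on simulated data.

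With 1 library per group there is no test. The members and lists were chosen with earlier results of these data known. Named genes were the 5 GIP cell markers. From each of the 74 lists, the 3 members farthest from 0, the most abundant and those past 2-fold against the list's median were named. The 15 genes farthest on each side and the 15 most abundant of each library were added. Further list members and genes outside the lists were named after their values were seen. Some genes that the rule picked are not reported here, though list counts and medians hold them. Alternatives numbered 13, of which 2 were chosen after seeing the data.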

Additional observations from a re-analysis of the deposited data

Results flagged for a closer look

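Transcripts without a gene symbol enter no comparison above. Among 848 of them that were screened, 8 stood out as higher in GIP-GFP than in Ngn3-negative. uc012csm.1 on chromosome 3, 89401896 to 89402650, overlaps Lenep and Flad1 and was at 35.8 scaled FPKM with Ngn3-negative listed at 0. uc009njr.1 on chromosome 8 overlaps no gene, lies nearest to Tat, and was at 46.7 against 1.01 (log2 ratio 4.57). Overlapping Ppp2r5e, uc029rtl.1 was at 16.4, and overlapping Smc5, uc029tru.1 was at 15.7, both with Ngn3-negative listed at 0. Nearest to Gm4265 on chromosome 7, uc009jzq.1 was at 30.8 against 1.01 (3.98). The others were uc029wsq.1 over Tusc3 at 50.2 against 4.80 (3.14), uc008wby.2 over Prdm16 at 44.6 against 4.86 (2.96) and uc008jla.1 over Ttll11 at 19.8 against 3.60 (2.18). No strand of the reads is stated in the sources used here, and for transcripts that overlap a gene, reads of both cannot be told apart.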

How the results depend on the processing

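No paired analysis was possible because each group has 1 library. The counts past a fold depended most on the pseudocount: with 0.1 the genes at least 4-fold lower numbered 607 against 373, and with 5 the genes at least 2-fold higher numbered 1792, those at least 4-fold higher 658 and those at least 4-fold lower 192. Under the other alternatives each of these counts stayed within 1.5 times its value in the report. Of 74 list medians, 62 kept their sign under every alternative tried. Sign changed for the fatty acid binding proteins, from -1.75 to 0.36 without the filter, 5.28 with transcripts of 500 bases or more and 1.77 with certain matches, where 3 to 8 genes were measured. It changed for stromal genes, from 1.14 to -0.077 without the filter. The remaining changes were of medians within 2-fold. The rule for named genes picked 384 genes. A reversal was counted only for the 344 of them past 2-fold, and 0 reversed. A pseudocount cannot change a sign and the scalings shift ratios by less than 2-fold. Only the choice of transcripts could therefore have reversed these genes. Ratios left their counting interval for 233 of the 384 genes with a pseudocount of 5 and for 184 with equal totals. The scale between libraries is not fixed by the files: log2 ratios shift by -0.21 with equal totals, by 0.17 with equal totals without the 20 most abundant genes of each library and by 0.02 with the median ratio. Low genes are limited by depth, and 403 genes were listed at 0 in 1 library.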
